A study of Mus musculus with 26 samples.

Results

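AP-1 is a family of transcription factors that bind DNA as pairs of basic leucine zipper proteins. The 9 genes described here were Fos, Fosb, Fosl2, Jun, Junb, Jund, Atf3, Maff and Batf, taken from the array's transcript accessions by gene symbol, with the brightest probe standing for each gene. All 9 passed the filter for measurable signal, as 9 of 24738 genes tested, and 10 probes carried their names because Fosl2 had 2. Fos-family proteins pair with Jun-family proteins and cannot pair with themselves, whereas Jun proteins can. Atf3 is a stress-inducible member that pairs with Jun proteins, Maff is a small Maf protein without a transactivation domain, and Batf competes with Fos for Jun partners and is best known from lymphocytes and dendritic cells. Several of these genes are immediate early genes: their transcription starts within minutes of a stimulus, from transcription factors already in the cell, and their mRNAs are short-lived. In microglia, the resident macrophages of the brain, they are induced by innate immune receptor signalling and also by tissue dissociation.

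The study measured RNA of EGFP+ cells sorted from punches of medial prefrontal cortex (mPFC) and nucleus accumbens (NAc) of mice that had gone through repeated social defeat stress (R-SDS) or were naive. All animals were CX3CR1EGFP/+ on a C57BL/6 background, so every group, controls included, had 1 copy of Cx3cr1 replaced by EGFP, which marks microglia and also other cells of the monocyte lineage. The other genotype was TLR-DKO; CX3CR1EGFP/+, which the published study describes as a loss of the innate immune receptor genes Tlr2 and Tlr4. There were 8 groups: wild-type mPFC naive (n = 3) and R-SDS (n = 3), TLR-DKO mPFC naive (n = 4) and R-SDS (n = 3), wild-type NAc naive (n = 3) and R-SDS (n = 3), and TLR-DKO NAc naive (n = 3) and R-SDS (n = 4). Stressed wild-type mice were labelled susceptible and stressed TLR-DKO mice resilient, so genotype and behavioural outcome cannot be told apart. Tissue was taken 1.5 hours after the last defeat session or, for naive mice, after a cage transfer. Each array held cells pooled from 3 to 6 mice, and the age of the animals is not given in the sources used here.

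The promoters of Fos, Atf3, Jun and Maff are shown because each holds a cAMP response element form, a site class bound by CREB and by Jun-Atf pairs, and because Fos and Atf3 had the smallest unadjusted p-values among the 9 genes after R-SDS in wild-type mPFC, whereas Jun and Maff had the smallest adjusted p-values between scan days. Each run is the 250 bases before the RefSeq transcription start, 5′ to 3′ on the gene's strand, on build GRCm38.p6: chr12:85473640-85473889 (plus strand) for Fos, chr1:191183334-191183583 (minus strand) for Atf3, chr4:95052223-95052472 (minus strand) for Jun, and chr15:79347270-79347519 (plus strand) for the second of 3 Maff starts. Capitals mark matches to TGACNTCA or TGACGT on either strand; in Maff both overlap.
Fos: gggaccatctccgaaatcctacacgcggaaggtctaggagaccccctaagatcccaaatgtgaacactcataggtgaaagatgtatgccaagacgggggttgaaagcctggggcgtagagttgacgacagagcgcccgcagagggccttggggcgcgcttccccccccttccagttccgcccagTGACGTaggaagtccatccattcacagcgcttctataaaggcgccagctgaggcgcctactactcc
Atf3: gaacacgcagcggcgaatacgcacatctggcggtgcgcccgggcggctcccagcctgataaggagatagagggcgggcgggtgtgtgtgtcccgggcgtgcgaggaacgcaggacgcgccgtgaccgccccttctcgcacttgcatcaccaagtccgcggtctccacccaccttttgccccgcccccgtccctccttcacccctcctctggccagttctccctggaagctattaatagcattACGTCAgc
Jun: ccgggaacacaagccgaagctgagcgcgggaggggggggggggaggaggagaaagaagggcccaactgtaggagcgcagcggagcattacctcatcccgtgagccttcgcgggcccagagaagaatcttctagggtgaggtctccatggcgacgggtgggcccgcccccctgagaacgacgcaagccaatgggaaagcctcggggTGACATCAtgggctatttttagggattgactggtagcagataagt
Maff: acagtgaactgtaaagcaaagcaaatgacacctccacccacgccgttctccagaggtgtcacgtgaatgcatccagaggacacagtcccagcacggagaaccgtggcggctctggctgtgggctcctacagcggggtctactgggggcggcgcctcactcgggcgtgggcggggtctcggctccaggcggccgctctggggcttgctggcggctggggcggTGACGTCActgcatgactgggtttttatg
The match lay 66 to 61 bases before the start in Fos, 8 to 3 in Atf3 (on the opposite strand), 45 to 38 in Jun and 29 to 22 in Maff. Batf also held TGACGT, 98 to 93 bases before its start, and the third Maff start held TGACATCA. No match to these letters was found in this window of Fosb, Fosl2, Junb or Jund. Of the 32851 mouse promoters of the same length, 12.2% held one or both forms. The AP-1 site itself, TGANTCA, was present in 6.75% of promoters and in none of the 11 member promoters, and the TATAAA letters, found in 12.4% of promoters, occurred in Fos 33 to 28 bases before the start. A match is a description of the letters and was not tied to binding or to the expression values.

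Values are log2 signal minus the array's 75th percentile, called the level below; a difference of 1 is a doubling. The spread between replicates was large: 3 to 4 arrays a group correlated at r of 0.801 to 0.925. In mPFC the third stressed wild-type array and the first naive TLR-DKO array stood apart most, and results that rest on them are given without them as well. The arrays lay on 4 slides and were scanned on 2 days, with each region on a slide of its own on each day. Each microglial marker of a 14-gene list (Cx3cr1, P2ry12 and Tmem119 among them) was well above background on all 26 arrays, so the labelled cell type was borne out by its markers; S100a9 and Ms4a1, markers of neutrophils and B cells, were above background on none. Tlr2 was well above background on all 12 wild-type arrays and on none of the 14 TLR-DKO arrays. Tlr4 was well above background on all 26, and since it is not known whether its probe lies in the deleted part, it checks nothing.

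The probes of the 9 genes gave very different levels. Jund, the most constitutive Jun gene, had a mean level of 7.93 over the 26 arrays, and Fosb 6.63. Fos (4.20), Jun (4.04), Fosl2 (3.71) and Atf3 (3.40) were intermediate and Junb lower at 1.71. Probes differ in how well they bind, so this order is not an order of mRNA amount. Maff (-0.76) and Batf (-0.66) were the lowest of the 9, at percentiles 47.6 and 48.9 of the mean levels of all genes tested. Maff was well above background on 23 arrays and Batf on 25, the other 7 genes on all 26. The within-group standard deviation was lowest for Jund (0.60) and highest for Maff (2.02), Batf (1.91) and Fosl2 (1.74), against a median of 0.76 over all genes. Group means were highest in a wild-type R-SDS group for 7 of the 9 genes (in mPFC for Fos, Junb, Jund, Atf3, Maff and Batf, in NAc for Fosb) and lowest in a wild-type naive group for 6 (Fos, Fosb, Jun, Junb, Jund and Atf3). The share of all genes with such extremes was not computed, so these counts are not a trait of the 9 genes. Of all genes, 62.3% had a higher mean after R-SDS than in naive mice in wild-type mPFC.

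**Figure D1:**
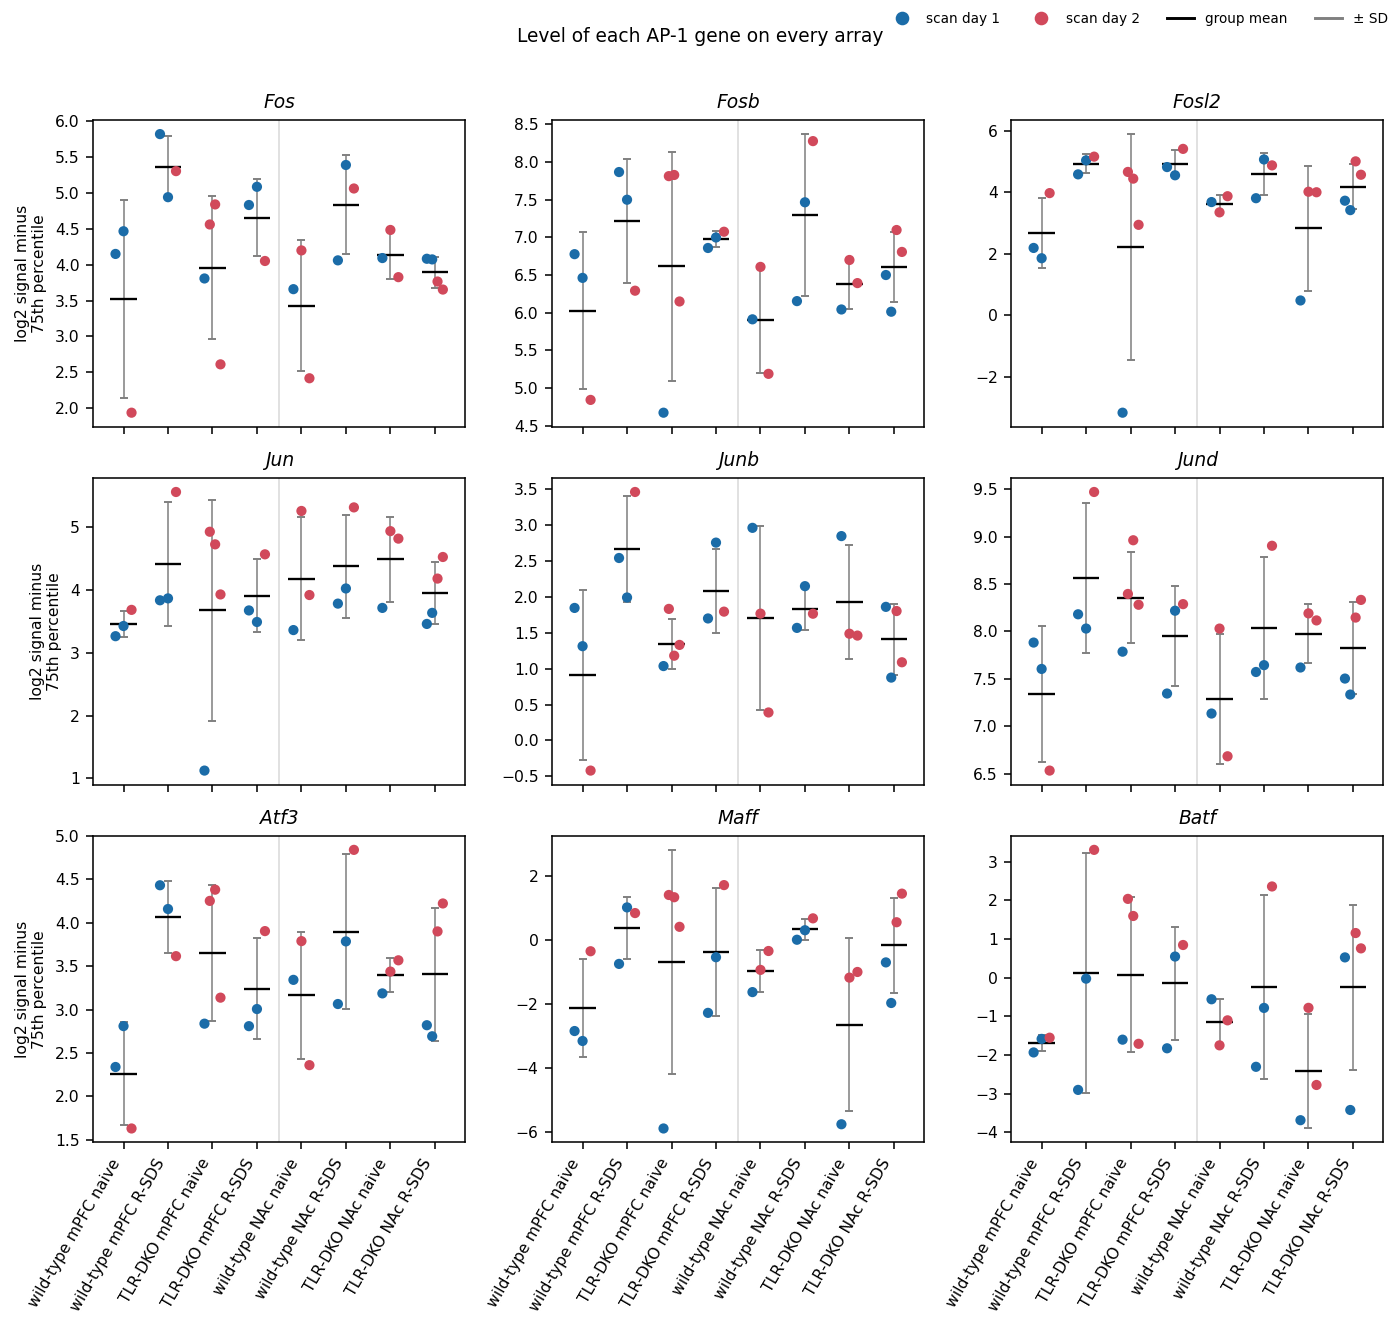
Level (log2 signal minus the array's 75th percentile, vertical axis) of the 9 AP-1 genes on each of 26 arrays, by group (horizontal axis); blue points were scanned on day 1 and red on day 2, black lines are group means and grey bars are ± SD. Naive and R-SDS arrays of wild-type mPFC do not overlap for Fos, Fosl2, Jun, Junb, Jund and Atf3, whereas Maff and Fosl2 have their lowest point on a day 1 array of TLR-DKO mPFC naive (-5.89 and -3.16).

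In wild-type mPFC, all 9 genes had a higher mean after R-SDS than in naive mice, by 0.96 to 2.48 on the log2 scale, with a median of 1.81 against 0.17 over all 24738 genes. None passed limma's test after adjustment over all genes (0 of 9; 2 of all genes, 0.00808%, did), and the smallest adjusted p of the 9 was 0.83. At an unadjusted p under 0.05, 4 of 9 were higher (Fos, Junb, Jund and Atf3), against 3.66% of all genes. Every R-SDS array lay above every naive array for 6 of 9 (Fos, Fosl2, Jun, Junb, Jund and Atf3), against 5.06% of all genes; 62.3% of all genes had a difference above 0.

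Fos, the founding member whose protein needs a Jun partner, had levels of 4.15, 4.47 and 1.94 on the naive wild-type mPFC arrays and 5.82, 4.94 and 5.31 on the R-SDS arrays. The groups did not overlap, and the third naive array was by far the lowest. The difference was 1.84 ± 0.62 (SE; 3.58-fold, 95% interval 0.55 to 3.13 on the log2 scale, limma adjusted p = 0.83). Atf3, which is induced by many cellular stresses and restrains inflammatory genes in macrophages, had levels of 2.34, 2.81 and 1.63 in naive and 4.43, 4.16 and 3.62 in R-SDS arrays. All 3 R-SDS arrays were high, with no array of either group standing alone. Its difference of 1.81 ± 0.54 (3.51-fold, 95% interval 0.68 to 2.94, adjusted p = 0.83) ranked 54 among genes higher after R-SDS by p-value.

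Junb, a Jun protein of weaker transactivation than Jun, measured 1.85, 1.31 and -0.42 in naive and 2.54, 1.99 and 3.46 in R-SDS arrays, a difference of 1.75 ± 0.61 (adjusted p = 0.83). Jund measured 7.88, 7.60 and 6.53 in naive and 8.18, 8.03 and 9.47 in R-SDS arrays, a difference of 1.22 ± 0.50 (adjusted p = 0.83). In both genes the gap between groups was narrow on the arrays of day 1 and wide on those of day 2. Within slide 1 (2 arrays against 2) the difference was 0.69 for Junb and 0.36 for Jund, and within slide 2 (1 against 1) it was 3.88 and 2.94. Fos also differed between slides, with 1.07 and 3.37, whereas Atf3 gave 1.72 and 1.99. The median over all genes was -0.04 within slide 1 and 0.61 within slide 2. The 1 pair on slide 2 set the array with the highest 75th percentile of raw signal in the series against that with the lowest. These were naive replicate 3 (340.5 units) and R-SDS replicate 3 (80.7 units). The part of this in the slide 2 differences was not tested.

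Fosl2 encodes Fra-2, a Fos-family protein without the strong activation domain of Fos. It measured 2.20, 1.86 and 3.98 in naive and 4.59, 5.04 and 5.17 in R-SDS arrays, a difference of 2.25 ± 1.34 without overlap. Its dimmer probe gave 0.52, and the 2 probes correlated at only r = 0.32 over the arrays. The 95% interval of the brighter Fosl2 probe was -0.54 to 5.05, and its difference was within 2 standard errors of 0. So were those of Fosb (1.19 ± 0.71), Jun (0.96 ± 0.76), Maff (2.48 ± 1.55) and Batf (1.81 ± 1.47).

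Single arrays carried part of this. Without naive replicate 3, only Atf3 kept an unadjusted p under 0.05 (5.17% of all genes in either direction) and the median of the 9 was 1.09. Without R-SDS replicate 3, Fos, Fosb and Atf3 had such a p (3.86% of all genes), with a median of 1.66. With quantile normalization the median over all genes moved from 0.17 to 0.03, and the differences were 1.47 for Fos, 1.49 for Atf3, 1.55 for Junb and 0.74 for Jund, all still above 0.

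**Figure D2:**
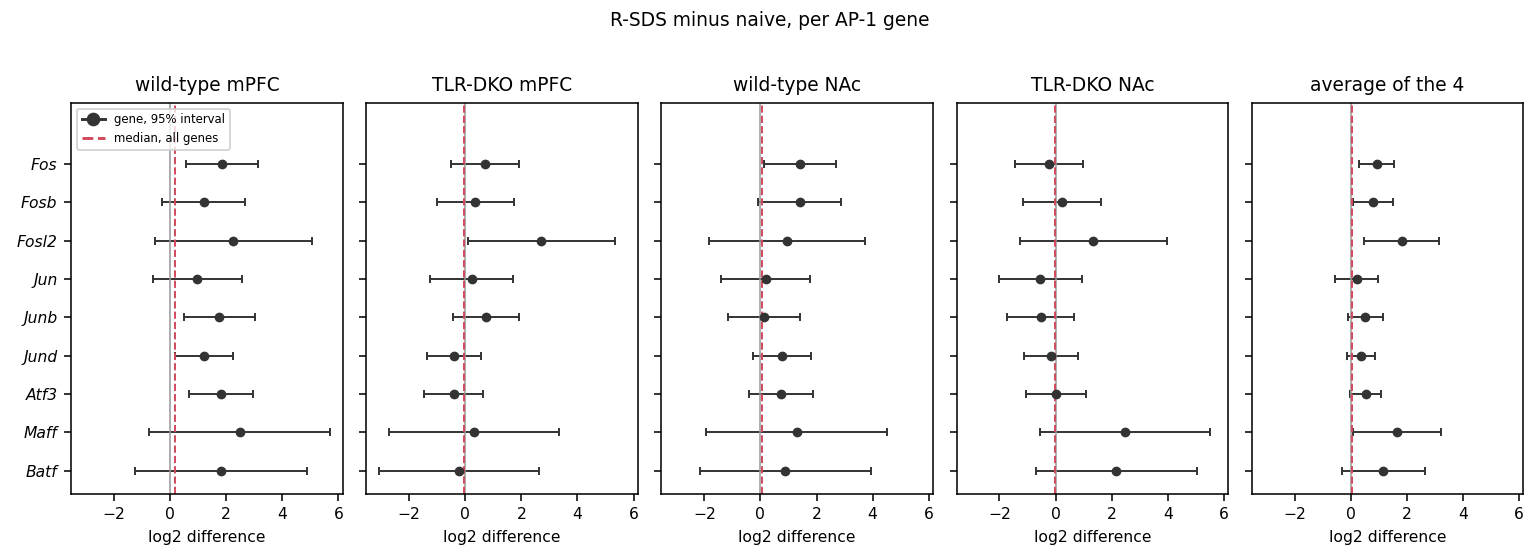
R-SDS minus naive (log2 difference, horizontal axis) for the 9 AP-1 genes in the 4 comparisons and their average; points are limma estimates, bars 95% confidence intervals, and the dashed red line is the median over all 24738 genes. All points of wild-type mPFC and wild-type NAc lie to the right of 0, and most intervals in the 4 comparisons include 0.

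Marker sums also differed between these arrays. The log2 of the summed signal of the heat shock list (17 of 18 genes measured) was 7.84 to 7.86 on naive and 8.11 to 9.42 on R-SDS wild-type mPFC arrays. Such a sum is weighted to the brightest genes, and the median difference of the 17 was 0.43, against 0.17 over all genes. The same sum over neuron markers (6 of 12 measured) was 4.84 to 6.59 and 5.55 to 6.83, and that of perivascular macrophage markers (9 of 9) was 2.74 to 4.06 and 3.60 to 5.80. Summed microglial markers were 10.58 to 11.35 and 10.67 to 12.11. Of the neuron markers, Rbfox3, Snap25, Tubb3 and Eno2 were above background on all 26 arrays, Map2 on 15, Nefl and Gad2 on 10, Slc17a7, Nefm and Gad1 on 5, Stmn2 on 3 and Syt1 on 2. The part of these shifts in the AP-1 values was not tested, and in bulk RNA fewer cells of a type and less RNA per cell cannot be told apart.

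In TLR-DKO mPFC the 9 genes did not move in 1 direction: 6 were above 0, where 46% of all genes were, and the median was 0.32. No gene passed limma's test after adjustment (0% of all genes did), and 1 of 9, Fosl2, had an unadjusted p under 0.05 on the higher side (2.36% of all genes); none was without overlap above (2.14%). Atf3 levels were 2.84, 4.25, 4.38 and 3.14 in naive and 2.81, 3.01 and 3.91 in R-SDS arrays, overlapping, with a difference of -0.41 ± 0.51. Fos measured 3.81, 4.56, 4.84 and 2.61 in naive and 4.83, 5.09 and 4.05 in R-SDS arrays (0.70 ± 0.58), again overlapping. Fosl2 measured -3.16, 4.67, 4.45 and 2.95 in naive and 4.83, 4.56 and 5.42 in R-SDS arrays (2.71 ± 1.25, adjusted p = 0.957). The first naive array, which stood apart, was the lowest of its group for 7 of the 9 genes, all but Fos and Batf: Fosl2, Jun (1.12), Fosb (4.67), Junb (1.04), Jund (7.79), Atf3 and Maff (-5.89, not above background). Without it no gene had p under 0.05, 3 of 9 were above 0 and the median was -0.59. Within slide 1, whose only naive array of this genotype is that one, the difference for Fosl2 was 7.86, against 1.40 within slide 2. Fosl2 also lost its unadjusted p under 0.05 without any 1 of the 3 R-SDS arrays, and the median was -0.09 without R-SDS replicate 3.

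In wild-type NAc, all 9 genes were above 0 (55% of all genes), with a median of 0.89. None passed after adjustment (0% of all genes), 1 of 9 had an unadjusted p under 0.05 on the higher side (1.42%), and 1 of 9, Maff, was without overlap (4.51%). Fos measured 3.66, 4.20 and 2.42 in naive and 4.06, 5.39 and 5.06 in R-SDS arrays, so that its lowest R-SDS array fell within the naive range; the difference was 1.41 ± 0.62 (95% interval 0.12 to 2.70, adjusted p = 1.00). Fosb, whose stable splice form accumulates in NAc neurons after repeated stress, measured 5.91, 6.61 and 5.19 in naive and 6.15, 7.47 and 8.28 in R-SDS arrays (1.40 ± 0.71, 95% interval -0.09 to 2.88). Atf3 (0.73 ± 0.54) and Jund (0.76 ± 0.50) were smaller, and Junb (0.12 ± 0.61) and Jun (0.19 ± 0.76) near 0. Within slides 3 and 4 the difference was 1.07 and 1.75 for Fos and 0.08 and 1.77 for Atf3. Without R-SDS replicate 3 the median was 0.33, and Fos no longer had p under 0.05 when naive replicate 3, R-SDS replicate 2 or R-SDS replicate 3 was left out.

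In TLR-DKO NAc, 5 of 9 genes were above 0 (48.1% of all genes) with a median of 0.01, none passed after adjustment (0.00808% of all genes), and none had an unadjusted p under 0.05 (3.04% of all genes). Fos was tightly grouped, at 4.09, 4.48 and 3.83 in naive and 4.08, 4.07, 3.77 and 3.65 in R-SDS arrays (-0.24 ± 0.58). Atf3 levels overlapped fully (0.01 ± 0.51). Leaving out the fourth stressed array gave a median of -0.16 and leaving out the second 0.25. Maff (2.47 ± 1.45) and Batf (2.17 ± 1.38) were the furthest from 0, and for both the first naive array was at its group's lowest (-5.76 and -3.69) and not above background.

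Averaged over the 4 comparisons, which use all 26 arrays, all 9 genes were above 0 (55.9% of all genes), by 0.21 to 1.81, with a median of 0.79. After adjustment none passed (0% of all genes), while 4 of 9 had an unadjusted p under 0.05 on the higher side (3.25%). These were Fos (0.93 ± 0.30, adjusted p = 0.777), Fosl2 (1.81 ± 0.65, adjusted p = 0.815), Fosb (0.79 ± 0.34) and Maff (1.64 ± 0.75). Fosb, Fosl2 and Maff were above 0 in each of the 4 comparisons, as were 9.16% of all genes. With the slide as a block, 8 of 9 genes (all but Junb) had p under 0.05, against 6.91% of all genes in either direction, with Maff at 2.27 ± 0.50 and Fosl2 at 2.25 ± 0.52, but the smallest adjusted p was 0.184. With that block the number at p under 0.05 was 6 of 9 in wild-type mPFC (7.94% of all genes in either direction), 1 in TLR-DKO mPFC (6.48%), 3 in wild-type NAc (4.2%) and 2 in TLR-DKO NAc (4.24%). Leaving out 1 array moved the count for the average from 2 (without wild-type mPFC R-SDS replicate 2, or wild-type NAc R-SDS replicate 3) to 6 (without TLR-DKO NAc R-SDS replicate 2), and Fos and Fosl2 were in it each time; in those fits 4.7% to 6.83% of all genes had such a p in either direction.

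Whether the stress difference depended on genotype was tested as an interaction, TLR-DKO difference minus wild-type difference. In mPFC it was below 0 for 8 of 9 genes (1 of 9 above 0, as were 39.6% of all genes), with a median of -1.14 against -0.23 over all genes. None passed after adjustment (0% of all genes), and 2 of 9, Atf3 and Jund, had an unadjusted p under 0.05 on the lower side (3.88%). The interaction was -2.22 ± 0.75 for Atf3 (95% interval -3.78 to -0.67, adjusted p = 0.81) and -1.63 ± 0.68 for Jund (adjusted p = 0.81). Atf3 kept an unadjusted p under 0.05 when any 1 array was left out. Jund lost it without wild-type naive replicate 3, wild-type R-SDS replicate 3, TLR-DKO naive replicate 3 or TLR-DKO R-SDS replicate 1. In NAc the median was -0.72, none passed after adjustment (0%) and none had p under 0.05 (2.52% of all genes); Fos came nearest with -1.65 ± 0.85 (95% interval -3.42 to 0.11).

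Genotypes were also compared within naive and within stressed mice; these comparisons share arrays with the stress comparisons above and are not separate evidence. In naive mPFC, Atf3 was 1.39 ± 0.51 higher in TLR-DKO (adjusted p = 0.781), with every TLR-DKO array (2.84 to 4.38) above every wild-type array (1.63 to 2.81). It was the only 1 of 9 without overlap (3.12% of all genes). Jund was 1.02 ± 0.46 higher, so 2 of 9 had an unadjusted p under 0.05 on the higher side (2.7%), none of them after adjustment (0.0121%); without wild-type naive replicate 3 neither did, and without TLR-DKO naive replicate 2, 3 or 4 only Atf3 did. In naive NAc no gene had p under 0.05 (3.3% of all genes). After R-SDS, 8 of 9 genes in mPFC and 9 of 9 in NAc had a lower mean in TLR-DKO (medians -0.58 and -0.42), none at p under 0.05 (5.84% and 4.03% of all genes); 34.2% and 41.3% of all genes were above 0. Between regions no AP-1 gene had p under 0.05, against 15.4% of all genes, and differences ran from -0.60 (Batf) to 0.38 (Jun). No slide held both regions, so region and slide cannot be told apart in this comparison.

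**Figure D3:**
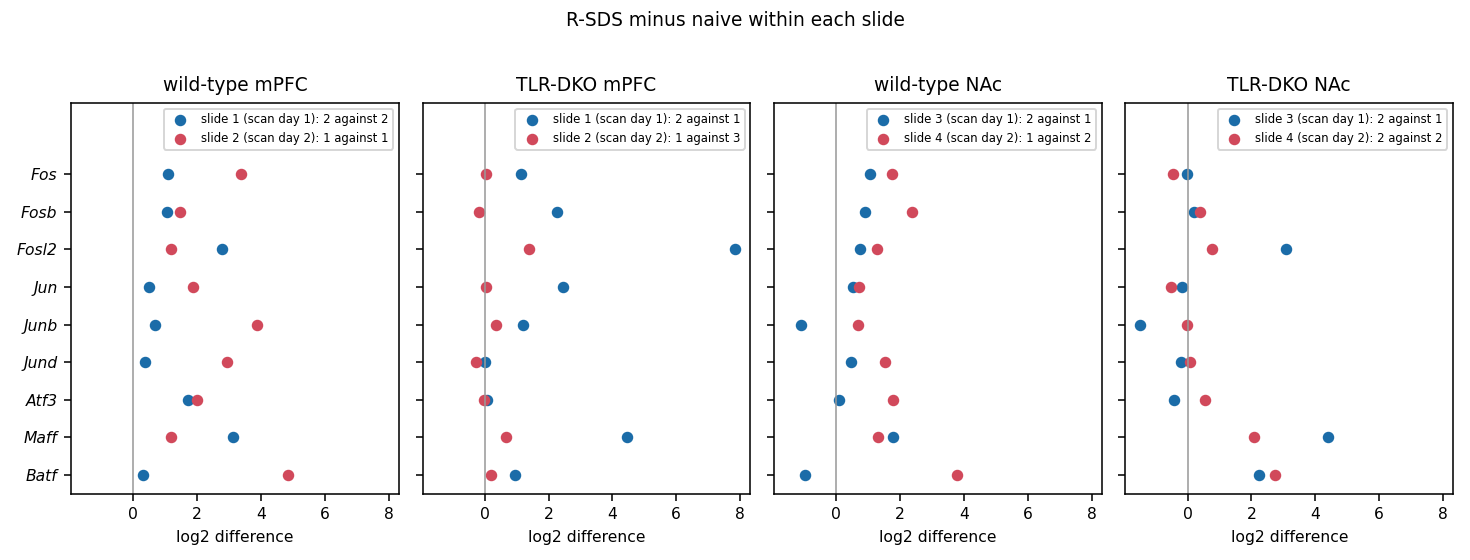
R-SDS minus naive (log2 difference, horizontal axis) for each AP-1 gene within each slide, with the number of R-SDS against naive arrays in the key; these values have no test. In wild-type mPFC both slides lie above 0 for all 9 genes, and Atf3 is nearly the same on both (1.72 and 1.99), whereas Junb and Jund are far apart.

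Scan day separated some of the genes more clearly than stress did. In a limma fit with group and scan day, 4 of 9 genes, Jun, Maff, Fosl2 and Batf, were higher on day 2 at an adjusted p under 0.05, against 7.89% of all genes in that direction and 18% in either. Jun was 1.38 ± 0.25 higher (adjusted p = 0.000848), Maff 2.77 ± 0.52 (adjusted p = 0.0012), Fosl2 1.95 ± 0.55 (adjusted p = 0.0185) and Batf 2.03 ± 0.62 (adjusted p = 0.0288). Fos (-0.42 ± 0.31) and Junb (-0.46 ± 0.30) lay on the other side of 0, and Fosb, Jund and Atf3 differed by 0.34 to 0.56; none of these 5 passed. Without the first naive TLR-DKO mPFC array, a day 1 array, 3 of 9 passed (7.02% of all genes in that direction): Jun at 1.07 ± 0.19 (adjusted p = 0.00111), Maff at 2.15 ± 0.40 (adjusted p = 0.00187) and Fosl2 at 1.17 ± 0.33 (adjusted p = 0.0227), whereas Batf was at 2.00 ± 0.68 (adjusted p = 0.0552). Without both arrays that stood apart the same 3 genes passed (6.04%), with Jun at 0.98, Maff at 2.37, Fosl2 at 1.29 and Batf at 1.57. Wild-type mPFC had 2 arrays of day 1 and 1 of day 2 in each condition, so day was balanced there. In the other 3 comparisons the naive group held relatively more arrays of day 2. Scan day is what the file headers record; whether it follows the 2 independent experiments that the series describes is not given in the sources used here.

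**Figure D4:**
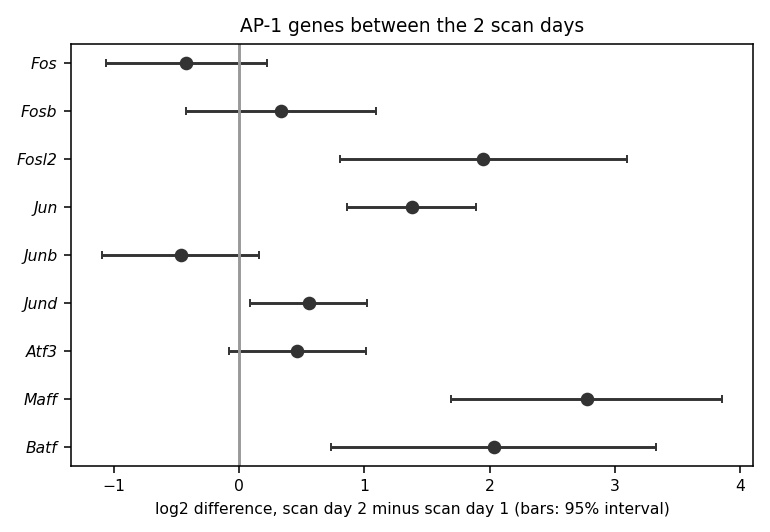
Scan day 2 minus scan day 1 (log2 difference, horizontal axis) for each AP-1 gene from a limma fit with group and day over 26 arrays; bars are 95% confidence intervals. The intervals of Jun, Fosl2, Maff, Batf and, narrowly, Jund lie above 0 (Jund missed the adjusted threshold), and Fos and Junb have estimates below 0.

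The genes did not vary as 1 unit among replicates. With group means removed, the 36 pairs of genes had Pearson r from -0.23 to 0.92 over the 26 arrays (median 0.45); this is a description, as all pairs share arrays, slides and scaling. The tightest pairs were Fosl2 with Maff (0.92), Fosb with Atf3 (0.84), Fosl2 with Jun (0.81) and Jun with Maff (0.80). Fos went with Fosb (0.64) and Junb (0.55) but not with Jun (0.12) or Maff (-0.20). Once scan day was removed too, Fos and Jun correlated at 0.66, Fos and Atf3 at 0.70 and Fos and Jund at 0.74. Fosl2 with Maff (0.87) and Fosb with Atf3 (0.84) stayed high, and Jun with Maff fell to 0.46. Several of these values rest on the first naive TLR-DKO mPFC array. With it left out (25 arrays), the values after removing group means were 0.85 for Fosl2 with Maff, 0.85 for Fosb with Atf3, 0.53 for Fosl2 with Jun and 0.59 for Jun with Maff. With scan day removed too they were 0.71, 0.89, -0.04 and -0.21 in the same order, and Fos and Jun were at 0.82. Leaving out both arrays that stood apart gave 0.84 for Fosl2 with Maff, and 0.69 with scan day removed too.

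**Figure D5:**
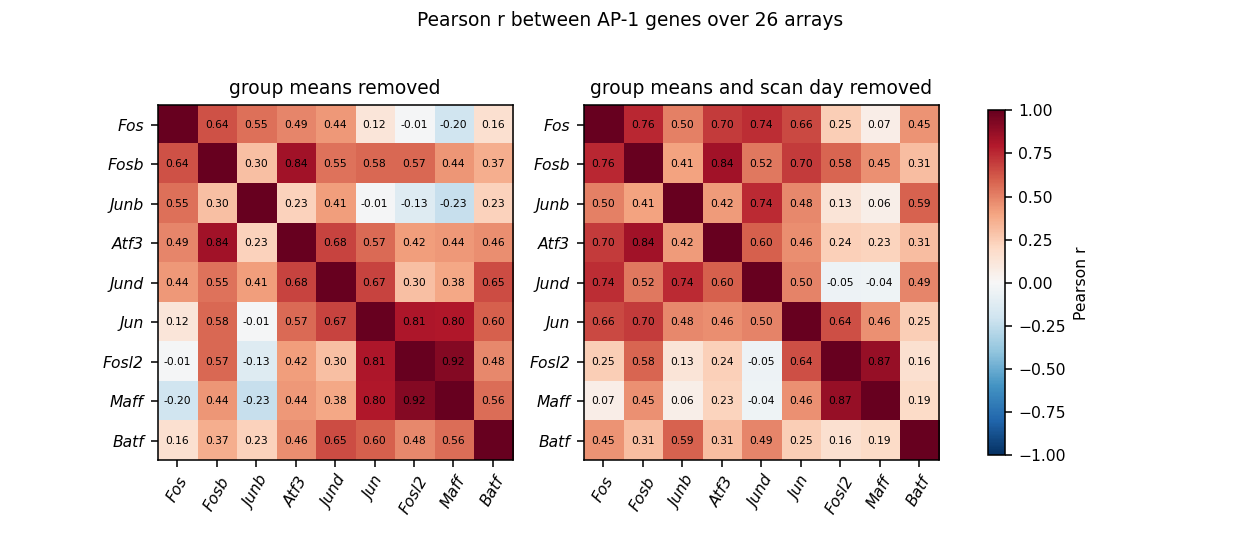
Pearson r between pairs of AP-1 genes over 26 arrays after removing group means (left) and group means and scan day (right); colour and number give r. Fosl2 and Maff form the tightest pair in both panels (0.92 and 0.87; 0.85 and 0.71 without the first naive TLR-DKO mPFC array), and r between Fos and Jun is 0.12 on the left and 0.66 on the right.

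Among RefSeq-named genes, those whose group-centred level most resembled the mean of the 9 over the 26 arrays were Mapre1 (r = 0.88), Il1b (0.87), Zfp36 (0.86), Hnrnpab (0.86), Tbc1d9b (0.86) and Nr4a1 (0.85), where 6.06% of all genes exceeded 0.5. Without the first naive TLR-DKO mPFC array their r was 0.71 to 0.79 and their places in that order ran from 11 (Zfp36) to 84 (Tbc1d9b). Il1b encodes the inflammatory cytokine interleukin-1 beta, Zfp36 an mRNA-destabilising protein and Nr4a1 an immediate early nuclear receptor. Their average stress differences were 0.88, 0.17 and 0.70.

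Other genes of the pathway were followed as lists chosen with earlier results of these data known, with no test of a list. Of 29 other immediate early genes measured (of 30), 26 were above 0 after R-SDS in wild-type mPFC (62.3% of all genes). The median of the 29 was 0.77 against 0.17 over all genes. At p under 0.05, 5 were higher and none lower (3.66% and 2.24% of all genes). Klf4, a zinc finger factor, differed by 3.18 ± 0.85 (adjusted p = 0.732) and Zfp36l1, a relative of Zfp36, by 1.09 ± 0.34. The list's median was 0.24 in TLR-DKO mPFC, 0.61 in wild-type NAc and 0.14 in TLR-DKO NAc. On average over the 4 comparisons, 10 were higher at p under 0.05 and none lower (3.25% and 2.22% of all genes), none after adjustment. The 10 included Klf4 (1.55 ± 0.41), Btg2 (0.85 ± 0.23) and Dusp1, a MAP kinase phosphatase (0.80 ± 0.27).

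Of 20 textbook AP-1 target genes measured (of 27), 18 were above 0 in wild-type mPFC (62.3% of all genes), with a median of 1.13. At p under 0.05, 5 were higher and 0 lower (3.66% and 2.24% of all genes). Among them were the chemokines Ccl3 (1.47 ± 0.47) and Ccl4 (1.60 ± 0.62), the urokinase receptor Plaur (3.26 ± 1.35) and the cytokine Il1a (2.16 ± 0.90). Medians in TLR-DKO mPFC, wild-type NAc and TLR-DKO NAc were 0.46, 0.84 and 0.24. On average 7 were higher and none lower (3.25% and 2.22% of all genes), with the cytokine Il6 at 2.62 ± 0.66 (adjusted p = 0.524).

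The remaining leucine zipper partners (24 of 25 measured) were mixed in wild-type mPFC: 17 were above 0 (62.3% of all genes), with a median of 0.39. At p under 0.05, 2 were higher and 2 lower (3.66% and 2.24% of all genes). Cebpb, a factor of inflammatory macrophage genes, was 1.41 ± 0.37 higher (adjusted p = 0.729) and Nfe2l2, the oxidative stress factor Nrf2, 1.08 ± 0.51 higher; Batf3 (-3.83 ± 1.39) and Atf2 (-2.73 ± 1.16) were lower. Of 30 MAP kinases and upstream regulators measured (of 31), 18 were above 0 with a median of 0.11, below the 0.17 of all genes. None was higher and 2 were lower at p under 0.05, among them the serum response cofactor Elk3 (-1.15 ± 0.48). None of the genes in these 4 lists passed limma's test after adjustment in any of the 4 stress comparisons or their average.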

How the data were processed

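RNA of sorted cells (500 pg a sample, amplified, Cy3-labelled) was hybridised to 1-colour Agilent arrays, and the deposited intensity values (processed signal of each spot) came from the scanner software the authors used, which the file headers name as Agilent Feature Extraction, version 11.0.1.1. The deposited series matrix holds log2 values per probe, which correlated at r = 1.00 with those computed here and differed by an offset of at most 0.062; its medians were -2.90 to -2.21. From the intensities, log2 signal minus each array's 75th percentile was computed. Control and outlier spots were left out and spots of a probe averaged. The filter kept probes whose signal exceeded background clearly on 3 or more arrays of some group, and each gene was represented by its brightest probe. The 75th percentile of raw signal was 80.7 to 340.5 units, and 50.0% to 71.0% of spots were well above background; the number of arrays limits the precision.

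limma 3.58.1 (R 4.3.3; lmFit, eBayes) was fitted to all 26 arrays as 8 group means; p-values are moderated, two-sided and adjusted by Benjamini-Hochberg over 24738 genes, with 0.05 as threshold. The fit was tested on simulated data. Gene names came from RefSeq (GRCm38.p6) through the accessions of the array design. The members and gene lists were chosen with earlier results of these data known. Named genes were the 9 members, the 6 RefSeq-named genes most like their mean, the genes of smallest p in each list (at most 4), and 4 microglial genes; some named genes are not reported here. The alternatives concerned normalization, background, filter, probe, sample set, slide, scan day, replicate block, array weights and left-out arrays. normexp used the median signal because the mean signal was not in the columns used here. p-values measure the spread between pooled samples. The labels number the arrays of a group as replicates. Whether mPFC and NAc pools came from the same mice was not tested.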

Additional observations from a re-analysis of the deposited data

Results flagged for a closer look

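The 9 genes were checked for an array far from the others of its group in the 2 groups of 4 arrays, 18 sets of values in all, and 2 were found; chance alone flags about 1 set in 20. Maff was -5.89 on TLR-DKO mPFC naive replicate 1, where the nearest of the other 3 arrays was at 0.40 and the signal was not above background. Batf was -3.42 on TLR-DKO NAc R-SDS replicate 2, where the nearest other array was at 0.52. Both are day 1 arrays. The interaction of stress and genotype passed adjustment for none of the 9 genes in limma.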

How the results depend on the processing

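In all 12 comparisons, 0 of the 9 genes passed an adjusted p under 0.05 in limma, and the count stayed 0 under every alternative run, including each array left out. The smallest adjusted p of a member under any alternative was 0.184 for the average of the 4 stress comparisons (slide as a block) and 0.314 in wild-type mPFC (without R-SDS replicate 2). Signs of single genes were checked only in the 4 stress comparisons and their average. There, no difference at least as large as its standard error changed sign. Beyond the spread moved 17 single-gene values, each within a single slide, and the median of the 9 in TLR-DKO mPFC (-0.59 without naive replicate 1). Within a region and genotype, deviations of same-numbered R-SDS and naive arrays correlated at -0.14 to 0.18, so replicate numbers showed no pairing there. Same-numbered mPFC and NAc arrays were not compared, so pairing between regions was not tested. With a replicate block 0 of 9 members and 2 of all genes passed in wild-type mPFC. Without both outlying arrays 4 of 9 genes had p under 0.05 there (Fos, Fosb, Fosl2 and Atf3; 4.22% of all genes) and the median was 1.66. Using the median signal for normexp, the dimmer Fosl2 probe, and the correlations and scan-day values without arrays that stood apart were chosen after seeing the data. With 3 to 4 arrays a group and a within-group SD up to 2.02, differences of Maff, Batf and Fosl2 were the least precise.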
